A study of Mus musculus with 8 samples.

Results

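Granulocyte, monocyte and macrophage genes were examined in B cells sorted from mouse spleen, as 34 genes fixed by name: 15 of neutrophils, 5 of monocytes or of myeloid cells at large, and 14 of red pulp and other splenic macrophages. Each gene was read from the probe sets annotated to its symbol alone, and all 34 were measured, out of 19937 genes with such a probe set. Each of the 34 had a single probe set. The arrays came from adult mice on a CBAxC57BL/6J background. The 4 Sca1-HGAL samples carry HGAL (also called GCET2), a human germinal centre B-cell gene, placed behind the Sca1 (Ly-6E.1) promoter, and the 4 Control samples are wild-type littermates. One label field calls the first group knock-in and the series design calls it transgenic. The Sca1 promoter is known to be active in blood stem and progenitor cells, so HGAL need not be limited to B cells in these mice. Spleen cells were sorted for carrying CD22 together with B220, and each sample's total RNA went on 1 Mouse Gene 1.0 ST array, a short-oligonucleotide chip from Affymetrix. Age beyond adult, sex, litter and pooling are not given in the labels, and the labels leave unsaid if arrays are of different mice. Every test therefore measures the spread between these samples, which may be technical.

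Neutrophils fill their granules in steps as they mature in the marrow: elastase, myeloperoxidase and other proteases in the primary granules come first, lactoferrin, lipocalin and cathelicidin in the secondary granules later, and the calcium-binding S100A8 and S100A9 crowd the cytosol of mature cells. Red pulp macrophages clear old red cells from the blood, take up dying cells through C1q and the receptors AXL and MERTK, and recycle heme iron with heme oxygenase. Neither cell type is known to carry both CD22 and B220, the proteins that were sorted for. In bulk RNA, fewer cells of a type and less RNA per cell cannot be told apart.

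To show the stretches of DNA that lie before genes whose levels moved together across the arrays, the 250 bases before the annotated start site are given for 3 neutrophil genes that shared an array pattern, for 1 primary granule gene with a partly different pattern, and for 2 C1q chains. The sequences are RefSeq's for GRCm38.p6, 5′ to 3′ on the gene's strand: Ngp on the plus strand at chr9:110419558-110419807, Lcn2 on the minus strand at chr2:32387740-32387989, S100a8 on the plus strand at chr3:90668821-90669070, Elane on the plus strand at chr10:79886062-79886311, C1qb on the minus strand at chr4:136886201-136886450 and C1qc on the minus strand at chr4:136892915-136893164. Capitals mark matches, on either strand, to TTGCNNAA, a form of the site read by C/EBP factors, or to GAGGAA, the core read by PU.1, the factors that drive granulocyte and macrophage genes.
Ngp: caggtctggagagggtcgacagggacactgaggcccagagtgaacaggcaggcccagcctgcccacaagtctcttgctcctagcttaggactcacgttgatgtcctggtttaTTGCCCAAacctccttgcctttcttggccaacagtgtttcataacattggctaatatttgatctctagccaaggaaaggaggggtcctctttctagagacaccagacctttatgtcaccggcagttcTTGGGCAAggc
Lcn2: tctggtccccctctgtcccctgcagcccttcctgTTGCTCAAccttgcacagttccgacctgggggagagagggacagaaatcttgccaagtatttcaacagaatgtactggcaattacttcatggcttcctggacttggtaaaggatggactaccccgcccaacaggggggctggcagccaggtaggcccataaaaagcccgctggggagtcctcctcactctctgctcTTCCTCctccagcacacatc
S100a8: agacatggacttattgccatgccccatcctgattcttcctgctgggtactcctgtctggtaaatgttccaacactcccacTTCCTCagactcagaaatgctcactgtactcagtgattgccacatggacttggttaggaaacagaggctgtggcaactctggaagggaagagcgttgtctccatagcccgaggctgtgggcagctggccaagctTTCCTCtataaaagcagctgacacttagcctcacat
Elane: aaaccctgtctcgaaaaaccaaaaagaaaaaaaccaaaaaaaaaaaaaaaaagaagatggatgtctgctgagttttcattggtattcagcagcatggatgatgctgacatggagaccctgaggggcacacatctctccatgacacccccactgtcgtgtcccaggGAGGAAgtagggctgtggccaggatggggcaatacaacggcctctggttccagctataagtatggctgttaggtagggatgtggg
C1qb: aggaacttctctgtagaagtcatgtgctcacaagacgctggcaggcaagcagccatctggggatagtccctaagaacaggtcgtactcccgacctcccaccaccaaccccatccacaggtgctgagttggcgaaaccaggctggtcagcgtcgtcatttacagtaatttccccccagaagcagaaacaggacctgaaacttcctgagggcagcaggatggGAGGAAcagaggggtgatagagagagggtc
C1qc: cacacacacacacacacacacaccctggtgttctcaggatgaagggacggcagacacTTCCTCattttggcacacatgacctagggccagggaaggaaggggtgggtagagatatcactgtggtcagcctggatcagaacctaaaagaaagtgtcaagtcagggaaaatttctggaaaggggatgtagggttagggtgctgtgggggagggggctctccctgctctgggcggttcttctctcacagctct
Promoters of 26 of the 34 members were in the table. The C/EBP form was found before 6 of 14 neutrophil genes, 1 of 3 monocyte genes and 0 of 9 macrophage genes, and in 9.56% of all 32851 promoters of this length. The PU.1 core was found before 10 of 14, 1 of 3 and 5 of 9, and in 23.3% of all promoters. Ngp held 2 matches to the C/EBP form and none to the PU.1 core, S100a8 the reverse, and Lcn2 1 of each. No match to one motif overlapped a match to the other in these 6 sequences. A match is a stretch of letters and not a shown binding site.

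The labelled cell type was borne out by its markers. The 7 measured B-cell markers lay at log2 11.45 to 13.81 on every array, with group means of Cd22, one of the sorting markers, at 12.66 in Control and 12.70 in Sca1-HGAL. A log2 level is the log2 of the deposited array intensity, whose median over probe sets was 145.2 to 151.4 per array. Brightness differs between probe sets for reasons other than RNA amount, so genes are not ranked by level. Control 2 and Control 4 alone had high levels of Xist, which silences an X chromosome, at 12.17 and 12.18 against at most 5.65 elsewhere, together with low Y-linked genes. That is the pattern of female cells. The other 6 arrays have the pattern of male cells, with the Y-linked Eif2s3y at 10.21 to 10.61. Both Xist-high arrays belong to Control, so sex is partly confounded with group, and values without these arrays are given where they turn a direction. Probe sets whose transcript should be absent (3 Y-linked genes on those 2 arrays and Xist on the other 6) read 3.96 to 6.22. Of the myeloid genes, 8 had a Control mean within that range, where the presence of any RNA is uncertain: Ctsg, Ltf, Mmp8, S100a8, Cxcr2, Cd14, Ccr2 and Cd163. The other 26 had a brighter Control mean.

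None of the 34 genes differed between Sca1-HGAL and Control past the threshold, a limma adjusted p under 0.05 over all 21640 probe sets, where 0.00502% of genes did. At an unadjusted limma p under 0.05, 7 members stood out, beside 9.53% of all genes. All 7 had the higher mean in Sca1-HGAL, as did 5.49% of genes, and 0 the lower, as did 4.03%. Of these 7, 6 were neutrophil genes and 1 was the macrophage gene Adgre1. The 4 Sca1-HGAL arrays lay wholly above the 4 Control arrays for Elane, Ctsg, Mmp9 and Adgre1, 4 of 34 against 3.10% of genes, and wholly below for 0, against 2.37%. Log2 folds, also called log2 differences, are Sca1-HGAL minus Control with the standard error (SE) of the fit, and levels carry their SD over 4 arrays.

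**Figure D1:**
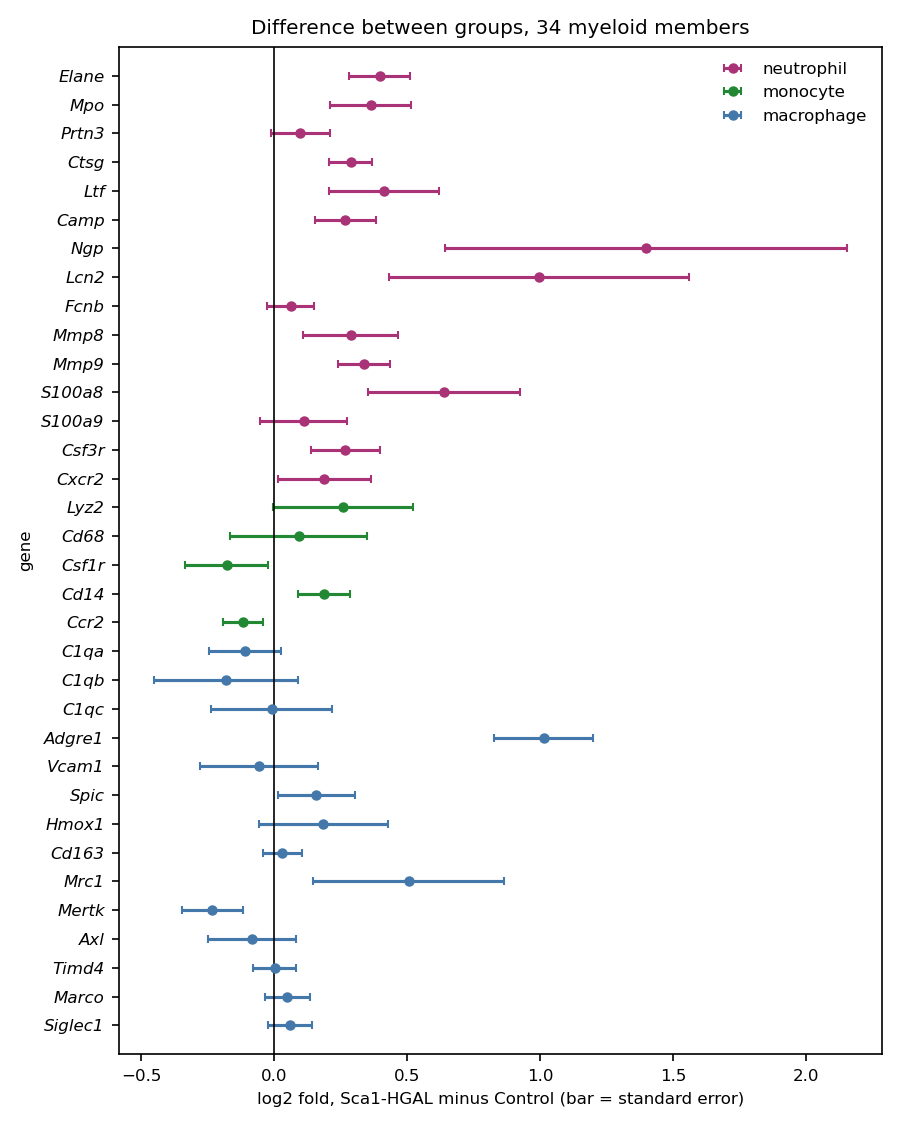
Log2 fold of each of the 34 myeloid genes, Sca1-HGAL minus Control (horizontal axis), with bars for the standard error of the limma fit and colours for the 3 lists. All 15 neutrophil genes sit right of 0, between 0.06 and 1.40, while the macrophage genes lie on both sides with Adgre1 alone near 1.01.

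Neutrophil genes leaned to higher values in Sca1-HGAL arrays. All 15 had a positive log2 fold, against 56.4% of all genes, from 0.06 for Fcnb to 1.40 for Ngp. Many of the 15 rose and fell together across arrays, so these are not 15 separate signs, and the list was chosen with earlier results known. Their median was 0.29, a 1.22-fold difference, beside 0.02 over all genes. The mean level of the 15, a measure unlike the median fold, had an SD of 0.32 between arrays of a group. It ranged from 6.10 to 6.59 over Control and from 6.25 to 7.19 over Sca1-HGAL arrays, which overlap. No member passed limma, the smallest adjusted p was 0.302, and 6 had an unadjusted p under 0.05. This count was 3 after a second quantile normalisation, after median centring, or without Control 1, Control 4 or Sca1-HGAL 1, and 10 without Sca1-HGAL 3. For these refits no share of all genes is given, so the counts cannot be read as particular to the members. Without Sca1-HGAL 3, 40 of all probe sets passed the threshold, against 1 in the main fit. T cell genes, also foreign to the gate, were highest on the same array as most neutrophil genes, Sca1-HGAL 1, for 9 of 11, with a median log2 fold of 0.06.

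Of the primary granule genes, 3 of 4 had means 0.29 to 0.40 higher in the Sca1-HGAL arrays, in log2. Elane, neutrophil elastase, was at 6.66, 6.88, 6.98 and 7.01 on Control arrays 1 to 4 and at 7.52, 7.02, 7.19 and 7.38 on Sca1-HGAL arrays 1 to 4. The groups did not overlap, although Sca1-HGAL 2 and Control 4 differed by little. The log2 fold of Elane was 0.40 (SE 0.12, limma adjusted p = 0.314), with a 95% interval of 0.14 to 0.65. Ctsg, the serine protease cathepsin G, lay at 5.11 to 5.31 in Control and 5.39 to 5.67 in Sca1-HGAL arrays, a log2 difference of 0.29 (SE 0.08, limma adjusted p = 0.302). Both groups of Ctsg values are in the range of absent transcripts. Mpo, myeloperoxidase, lay at 6.42 to 6.82 and 6.63 to 7.44, which overlap. Its log2 difference was 0.36 (SE 0.15, limma adjusted p = 0.502), or 0.22 without Sca1-HGAL 1 and 0.49 without Sca1-HGAL 3. Prtn3, proteinase 3, was the exception over all 8 arrays, at 6.69 ± 0.23 (SD, n = 4) and 6.79 ± 0.12 (SD, n = 4). Its log2 fold of 0.10 became -0.0016 without Control 1 and 0.27 without the Xist-high arrays. Elane and Prtn3 are neighbouring genes of one protease family.

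Ngp and Lcn2 of the secondary granules had the widest spread of the 34 genes, and it ran within both groups. Ngp, neutrophilic granule protein, read 6.09, 5.98, 8.30 and 6.81 on Control arrays 1 to 4 and 9.92, 9.06, 6.25 and 7.56 on Sca1-HGAL arrays 1 to 4. Control 3 exceeded Sca1-HGAL 3 and 4. Control 1 and 2 read within the range of absent transcripts, and both enter the Control mean against which the log2 fold is taken. Within groups, the SD of Ngp was 1.38, larger than for 99.96% of genes. Its log2 fold was 1.40 (SE 0.76, limma adjusted p = 0.601), with a 95% interval of -0.29 to 3.08. That fold was 0.82 without Sca1-HGAL 1 and 2.05 without Sca1-HGAL 3. Lcn2, a lipocalin that binds bacterial siderophores, read 6.19, 6.76, 8.08 and 6.83 in Control and 9.37, 8.44, 6.59 and 7.44 in Sca1-HGAL arrays. As with Ngp, Sca1-HGAL 1, Sca1-HGAL 2 and Control 3 were the highest. Its log2 fold was 1.00 (SE 0.56, limma adjusted p = 0.616), or 0.52 without Sca1-HGAL 1 and 1.45 without Sca1-HGAL 3.

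S100a8, a subunit of calprotectin, read 5.42, 5.48, 6.18 and 5.57 in Control and 7.14, 6.42, 5.70 and 5.94 in Sca1-HGAL arrays. Once more Sca1-HGAL 1 and 2 and Control 3 were the highest arrays. The log2 fold of S100a8, whose Control mean is in the range of absent transcripts, was 0.64 (SE 0.29, limma adjusted p = 0.52). It was 0.36 without Sca1-HGAL 1 and at most 0.84 under the other settings tried. Its partner S100a9 ranged over 6.75 to 7.22 in Control and 6.66 to 7.43 in Sca1-HGAL arrays, with a log2 difference of 0.11 (SE 0.16, limma adjusted p = 0.877). Without Sca1-HGAL 1 that fold was -0.03 and without the Xist-high arrays -0.02. Ltf, lactoferrin, ranged over 5.93 to 6.32 and 6.03 to 7.14, and Mmp8, neutrophil collagenase, over 4.82 to 5.03 and 4.64 to 5.64. Both had the highest value on Sca1-HGAL 1 and overlapped between groups, with log2 folds of 0.41 (SE 0.21) and 0.29 (SE 0.18) that were 0.19 and 0.14 without that array. Without Sca1-HGAL 3, Ltf had 0.56 and Mmp8 0.47. Camp, cathelicidin, was at 6.81 ± 0.23 (SD, n = 4) and 7.08 ± 0.13 (SD, n = 4), with a limma adjusted p = 0.504. Its log2 fold of 0.27 was 0.17 without Control 2, 0.12 without both Xist-high arrays and 0.36 without Control 3.

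Mmp9, the gelatinase of the late granules, was the other neutrophil gene whose groups stood apart, beside Elane and Ctsg. Its Control arrays read 6.25, 6.29, 6.32 and 6.13 and its Sca1-HGAL arrays 6.85, 6.58, 6.36 and 6.55. The Control values lie near the upper end, 6.22, of the range of absent transcripts. Sca1-HGAL 3 exceeded the highest Control array by very little. The log2 fold was 0.34 (SE 0.10, limma adjusted p = 0.305), with a 95% interval of 0.12 to 0.55. Fcnb, the complement lectin ficolin B, was nearly level, at 7.28 ± 0.06 (SD, n = 4) and 7.35 ± 0.18 (SD, n = 4). On Sca1-HGAL 1, where 12 of the 15 neutrophil genes were highest, Fcnb was at its lowest, 7.11. The receptor genes Csf3r, for the granulocyte growth factor G-CSF, and Cxcr2, for neutrophil chemokines, had log2 folds of 0.27 (SE 0.13) and 0.19 (SE 0.18). Both were highest on Sca1-HGAL 1, at 6.99 and 5.50, and without that array the folds were 0.18 and 0.0013, so that of Cxcr2 rested on it. Without Sca1-HGAL 3, Cxcr2 had 0.33, and the fold of Csf3r was at most 0.40 under the other settings tried.

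**Figure D2:**
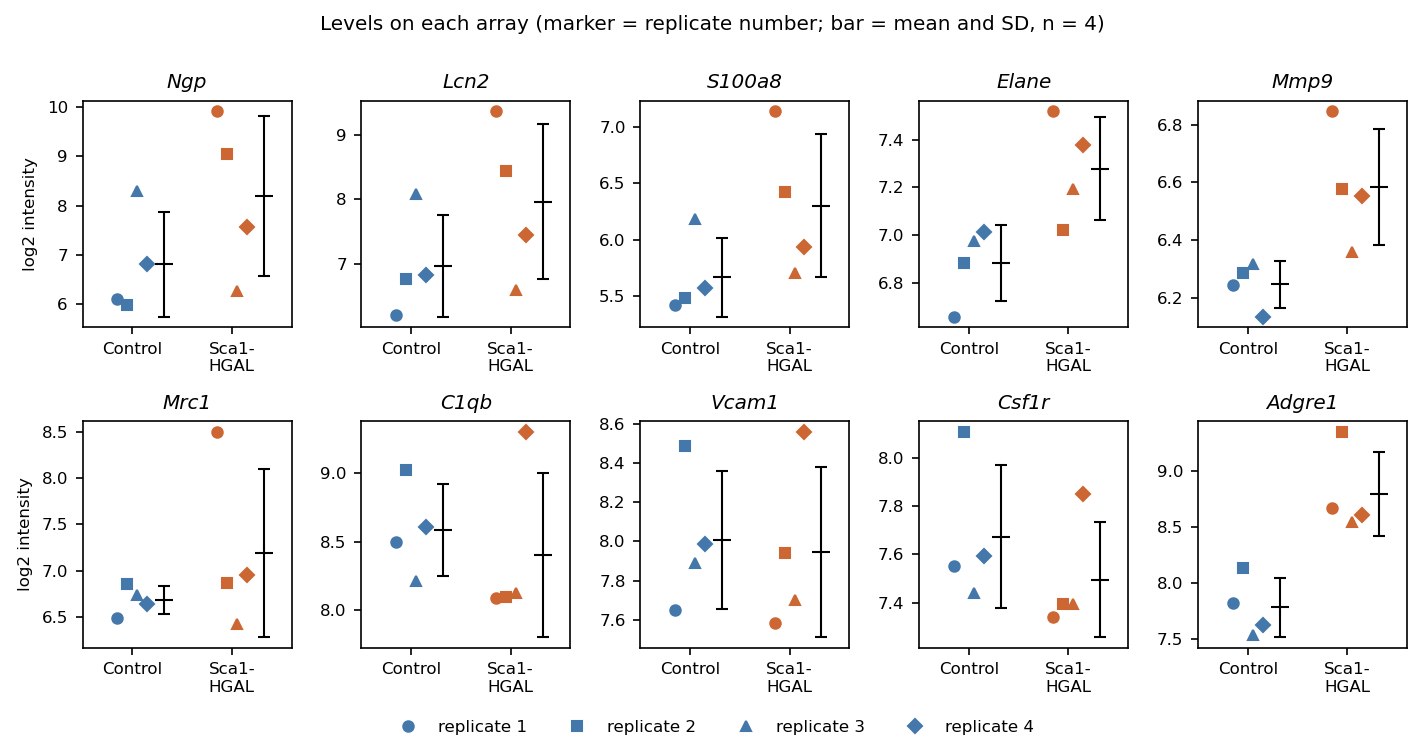
Log2 intensity of 10 myeloid genes on each array, by group, with a marker for each replicate number and a bar for the mean and SD of 4 arrays. The groups stand apart for Elane, Mmp9 and Adgre1, Sca1-HGAL 1 (circle) is highest for Ngp, Lcn2, S100a8 and Mrc1, and Sca1-HGAL 4 (diamond) for C1qb and Vcam1.

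Monocyte and general myeloid genes showed no common difference between the groups. Of the 5, 3 had a positive and 2 a negative log2 fold, with a median of 0.09, which was -0.13 without Sca1-HGAL 1. None passed limma, and 0 had an unadjusted p under 0.05. Cd68, a lysosomal glycoprotein of macrophages, read 9.14, 9.56, 9.20 and 9.27 in Control and 10.23, 8.83, 9.03 and 9.44 in Sca1-HGAL arrays. Sca1-HGAL 1 stood above all Control arrays and Sca1-HGAL 2 and 3 below them, so the log2 fold of 0.09 (SE 0.26) was -0.19 without Sca1-HGAL 1. Lyz2, lysozyme of macrophages and granulocytes, had its lowest values on Control 4, at 7.56, and Sca1-HGAL 3, at 7.67, and lay at 8.26 to 8.78 on the other 6 arrays. Its log2 fold was 0.26 (SE 0.26, limma adjusted p = 0.806), with 0.06 without Control 4, 0.14 without Sca1-HGAL 1, 0.39 without Control 2 and 0.51 without Sca1-HGAL 3, and its close copy Lyz1 may share hybridisation. Csf1r, the receptor for the macrophage growth factor, read 7.55, 8.11, 7.44 and 7.60 and then 7.34, 7.39, 7.40 and 7.85. Control 2 and Sca1-HGAL 4 were its highest arrays, a pattern that recurred in the macrophage genes, and its log2 fold was -0.18 (SE 0.16, limma adjusted p = 0.771). Without Control 2 the fold of Csf1r was -0.03, without both Xist-high arrays -0.0010, and without Sca1-HGAL 4 -0.30. Cd14, the endotoxin co-receptor, had a log2 difference of 0.19 (SE 0.10), or 0.12 without Control 1, and Ccr2, the chemokine receptor of inflammatory monocytes, -0.12 (SE 0.07), or -0.08 without Sca1-HGAL 2, both within the range of absent transcripts.

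Adgre1 was the only macrophage gene whose groups stood apart, and the other 13 overlapped. Over all 14, Adgre1 included, the median log2 fold was 0.02, beside 0.02 over all genes, with 8 positive and 6 negative. None of the 14 passed limma, and 1 had an unadjusted p under 0.05. Adgre1, which encodes the F4/80 antigen, read 7.83, 8.14, 7.54 and 7.63 in Control and 8.67, 9.36, 8.55 and 8.61 in Sca1-HGAL arrays. All 4 Sca1-HGAL arrays exceeded all 4 Control arrays, with Sca1-HGAL 2 the highest. The log2 fold was 1.01 (SE 0.19, limma adjusted p = 0.122), a 2.02-fold difference with a 95% interval of 0.60 to 1.43 in log2. It did not pass the threshold, and the log2 fold was 0.83 without Sca1-HGAL 2 and 1.11 without the Xist-high arrays.

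Genes of the clearance machinery overlapped between the groups and varied within them. C1qb, a chain of the complement recognition molecule C1q, read 8.50, 9.02, 8.21 and 8.60 in Control and 8.09, 8.10, 8.12 and 9.30 in Sca1-HGAL arrays. Of the Sca1-HGAL arrays, 3 lay below every Control array and the remaining array, Sca1-HGAL 4, lay above every Control array. The log2 fold of -0.18 (SE 0.27) was -0.48 without Sca1-HGAL 4 and 0.05 without the Xist-high arrays. The other chains C1qa and C1qc had log2 folds of -0.11 (SE 0.14) and -0.01 (SE 0.23), with 0.07 and 0.26 without the Xist-high arrays. Vcam1, an adhesion molecule of red pulp macrophages, read 7.65, 8.49, 7.89 and 7.99 and then 7.58, 7.94, 7.70 and 8.56. Control 2 and Sca1-HGAL 4 were again the highest, and the log2 fold of -0.06 (SE 0.22) was 0.18 without the Xist-high arrays. Hmox1, heme oxygenase 1, had the same highest arrays, at 8.65 and 8.93, with the other 6 at 7.67 to 8.37, and its log2 fold of 0.18 (SE 0.24) was -0.012 without Sca1-HGAL 4 and 0.49 without the Xist-high arrays. Axl, a receptor for dying cells, likewise read 8.09 and 7.98 there and 7.34 to 7.70 elsewhere, and its log2 fold of -0.08 (SE 0.17) was 0.14 without the Xist-high arrays. These scavenging genes thus shared their top arrays, 1 in each group. Its relative Mertk read 7.22 and 7.06 there and 6.61 to 7.03 elsewhere, with a log2 difference of -0.23 (SE 0.11, limma adjusted p = 0.556), or -0.12 without the Xist-high arrays.

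Spic, which encodes a transcription factor that red pulp macrophages need and that B cells also make, did not join that pattern. It was lowest on Control 4, at 6.94, and lay at 7.29 to 7.67 on the other arrays. Its log2 fold was 0.16 (SE 0.14), or 0.02 without Control 4. Mrc1, the mannose receptor, read 8.50 on Sca1-HGAL 1 and 6.43 to 6.96 on the other 7 arrays. The Mrc1 log2 fold of 0.51 (SE 0.36, limma adjusted p = 0.704) rested on that array and was 0.07 without it. Fcgr4, an Fc receptor of monocytes and macrophages chosen after its values were seen, was likewise at 8.74 on Sca1-HGAL 1 and at 5.33 to 5.75 elsewhere. Marco and Siglec1, receptors of the macrophages that line the marginal zone, and Timd4, a receptor for dying cells, were nearly flat, with ranges over 8 arrays of 0.35, 0.35 and 0.32. Cd163, the haemoglobin scavenger receptor, ranged over 0.26 around the level of absent transcripts. The log2 folds of these 4 genes lay between 0.00 and 0.06.

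**Figure D3:**
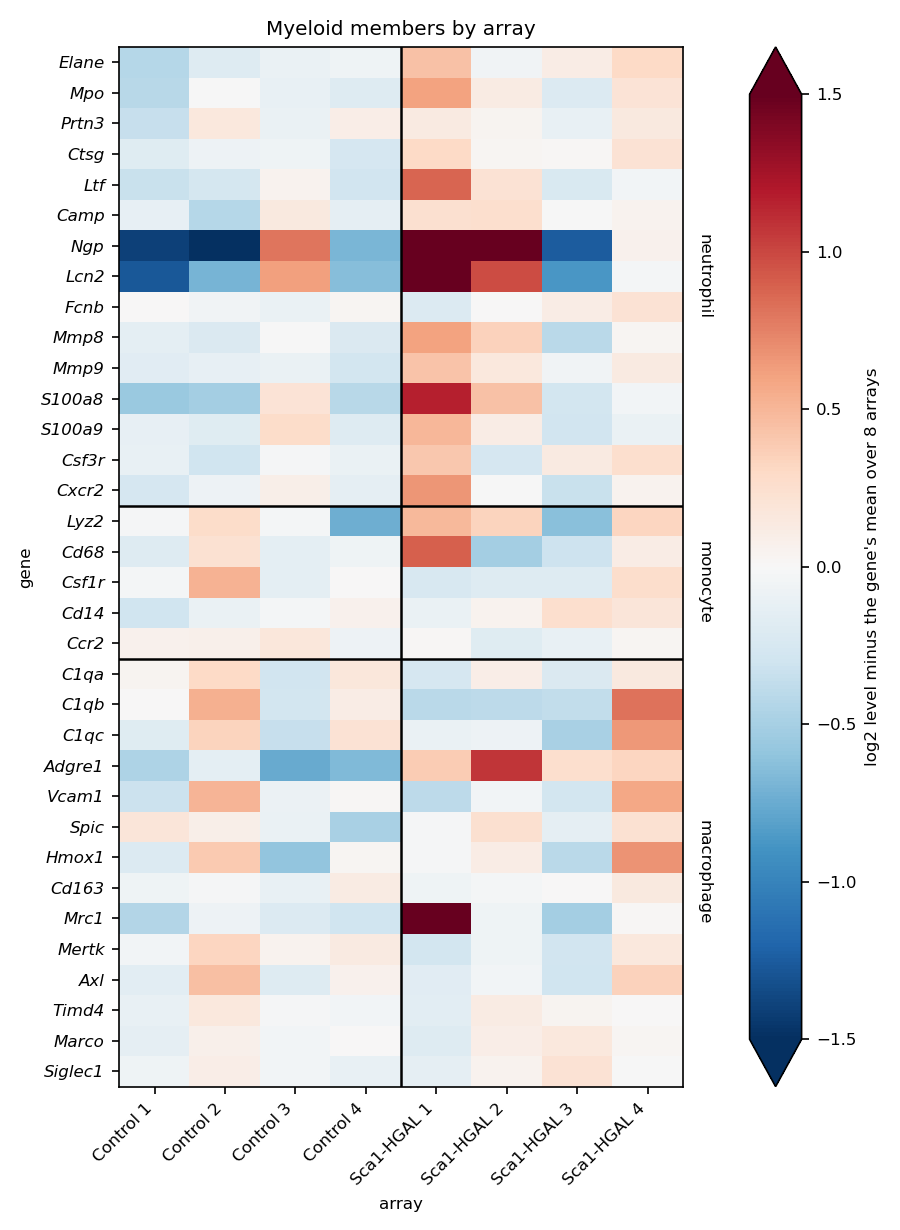
Log2 level minus the gene's mean over 8 arrays for the 34 myeloid genes (rows, grouped by list) on each array (columns, Control left and Sca1-HGAL right), with colours that saturate at 1.5 on either side. Ngp and Lcn2 are strongest in colour and are high on Sca1-HGAL 1, Sca1-HGAL 2 and Control 3, whereas C1qb, C1qc, Vcam1, Hmox1 and Axl are high on Control 2 and Sca1-HGAL 4.

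The arrays thus differed in the myeloid genes in more than one way. As a description, the correlation of deviations from the group means was taken for each pair of genes over the 8 arrays. It was above 0.7 for 43 of 105 neutrophil pairs (41.0%) and 26 of 91 macrophage pairs (28.6%), beside 5.08% of all gene pairs. Between neutrophil and macrophage genes it was above 0.7 for 11 of 210 pairs (5.24%), with a median of -0.15. Of these 11, 9 were pairs of Mrc1. Mrc1 was thus above 0.7 with 9 of 15 neutrophil genes and with 0 of 13 macrophage genes. Csf1r, listed with the monocyte genes, was above it with 7 of 14 macrophage and 0 of 15 neutrophil genes. Adgre1 was above it with none of the 33 other members. Fcnb ran opposite to its list, with a median of -0.75 against the other neutrophil genes.

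Among 12 pairs fixed for their biology, 5 passed an exact permutation test of Pearson's r over the 8 arrays at an adjusted p under 0.05, and 2 of Spearman's rho. The test pools both groups, so a group difference shared by 2 genes adds to r. For deviations from the group means, r was 0.94 for Ltf and Lcn2, 0.81 for Camp and Ngp and 0.98 for S100a8 and S100a9. It was 0.91 for C1qb and C1qc and 0.70 for Elane and Mpo. Ltf and Lcn2 had r = 0.95 (exact permutation p = 0.00015, adjusted p = 0.0018) and rho = 0.90 (p = 0.0046, adjusted p = 0.027), with r = 0.96 without the 2 arrays farthest from the median of Ltf. Camp and Ngp had r = 0.86 (exact permutation p = 0.0053, adjusted p = 0.016) and rho = 0.90 (p = 0.0046, adjusted p = 0.027), with r = 0.91 without the 2 farthest arrays. S100a8 and S100a9 had r = 0.91 (exact permutation p = 0.0046, adjusted p = 0.016) and rho = 0.74 (p = 0.046, adjusted p = 0.138), with r = 0.76 without the 2 farthest. These granule and calprotectin pairs kept r at 0.76 or above without the 2 arrays farthest from the median of the pair's first gene. Other extreme arrays stayed in. For Camp and Ngp, Sca1-HGAL 1 stayed in, the highest array for Ngp. For Ltf with Lcn2 and S100a8 with S100a9, Control 3 stayed in, the highest Control array for each of these genes. How far r rests on these arrays was not tested.

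C1qb and C1qc had r = 0.89 (exact permutation p = 0.0032, adjusted p = 0.016) but rho = 0.64 (p = 0.096, adjusted p = 0.144), and r = 0.57 without Control 2 and Sca1-HGAL 4, so the relation leaned on those arrays. Elane and Mpo had r = 0.83 (exact permutation p = 0.012, adjusted p = 0.028) and rho = 0.67 (p = 0.083, adjusted p = 0.142), and r = 0.38 without Control 1 and Sca1-HGAL 1, on which it rested. C1qa had r = 0.73 with C1qb (exact permutation p = 0.045, adjusted p = 0.077) and rho = 0.69 (p = 0.069, adjusted p = 0.139). With C1qc it had r = 0.76 (exact permutation p = 0.029, adjusted p = 0.058) and rho = 0.81 (p = 0.022, adjusted p = 0.087). The pairs Elane and Prtn3 (r = 0.60), S100a9 and Lyz2 (0.59), Spic and Hmox1 (0.41), Csf1r and Adgre1 (-0.19) and Elane and C1qb (-0.04) did not pass, with exact permutation p from 0.114 to 0.920 and adjusted p from 0.156 to 0.920. Their rho ran from -0.45 to 0.71, with adjusted exact permutation p from 0.138 to 0.462. Without the Xist-high arrays, over the 6 others, 1 pair passed, Ltf and Lcn2 (r = 0.94, exact permutation p = 0.0014, adjusted p = 0.017), Camp and Ngp had r = 0.95, S100a8 and S100a9 0.89 and C1qb and C1qc 0.87. Within each group of 4 arrays there are too few samples for a correlation.

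Counted by array, 12 of 15 neutrophil genes were highest on Sca1-HGAL 1, which was the highest array for 14.7% of all genes. The mean log2 level of the 15 ranged from 6.10 to 6.59 over the Control arrays and from 6.25 to 7.19 over the Sca1-HGAL arrays, lowest there on Sca1-HGAL 3. On Control 3, 13 of 15 were above their group mean, against 49.2% of all genes. Among the 14 macrophage genes, 14 were above their group mean on Control 2, against 58.7% of all genes, and 11 on Sca1-HGAL 4, against 50.6%. On Sca1-HGAL 1, the top array for neutrophil genes, 1 of 14 was, against 40.2%.

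**Figure D4:**
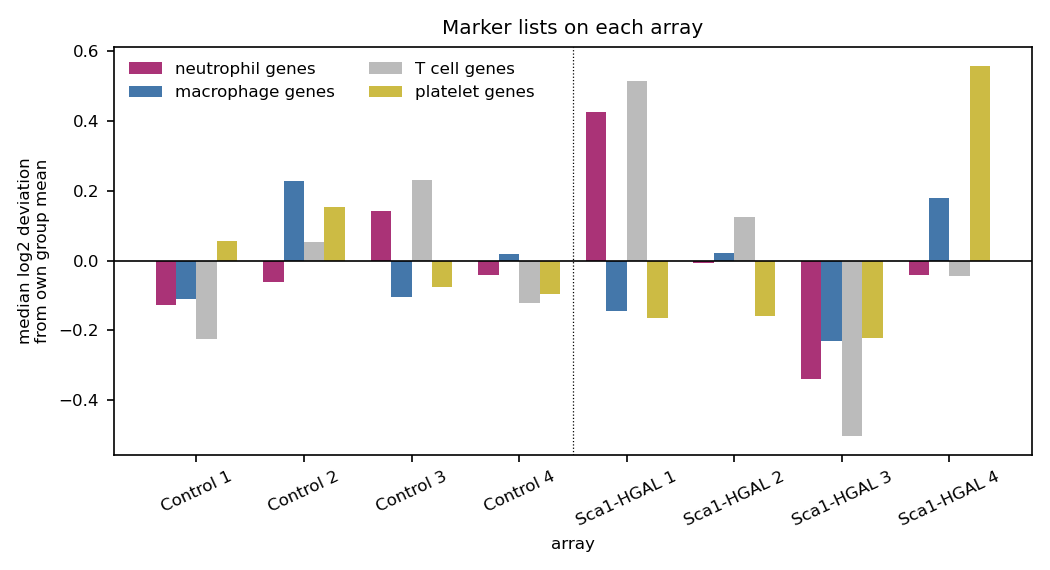
Median deviation in log2 from the mean of the array's own group (vertical axis) over 15 neutrophil, 14 macrophage, 11 T cell and 5 platelet genes, on each of the 8 arrays. Neutrophil and T cell genes are both high on Sca1-HGAL 1 and both low on Sca1-HGAL 3, while macrophage genes are high on Control 2 and Sca1-HGAL 4, and platelet genes on Sca1-HGAL 4.

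Of the markers of other cells, most T cell and platelet genes were highest on a top array of the myeloid patterns. The other lists did not all share those top arrays. Of 11 measured T cell genes, 9 were highest on Sca1-HGAL 1 and 10 lowest on Sca1-HGAL 3, and 11 were above their group mean on Control 3. Their mean log2 level ranged from 7.47 to 7.91 over Control and from 7.03 to 8.25 over Sca1-HGAL arrays. All 11 had group means above the range of absent transcripts. For the dimmest the margin was narrow, with a Control mean of 6.24 and Control 1 within the range at 5.96. Cd3e, a chain of the T cell receptor complex, was at 9.33 on Sca1-HGAL 1 and 8.03 on Sca1-HGAL 3, with a log2 difference of 0.09 (SE 0.24). Of 5 platelet genes, 4 were highest on Sca1-HGAL 4, with a mean level of 7.17 to 7.69 over Control and 7.41 to 8.30 over Sca1-HGAL arrays, Pf4 at 7.47 there against 6.32 to 6.61 elsewhere. The 8 NK cell genes had a mean level of 5.88 to 6.28 over Control and 5.71 to 6.03 over Sca1-HGAL arrays. Of these, 0 were highest on Sca1-HGAL 1, 0 on Sca1-HGAL 4, 3 on Control 2 and 3 on Control 3. The 9 eosinophil and basophil genes differed little, at 5.87 to 5.92 and 5.86 to 6.06, with 4 highest on Sca1-HGAL 4. Of the 10 dendritic cell genes, 4 were highest on Control 3 and 4 on Sca1-HGAL 2. Their mean level was 6.94 to 7.36 and 6.86 to 7.01, and members went both ways. None passed limma, while 3 were higher and 4 lower at an unadjusted p under 0.05, and 2 stood wholly higher and 3 wholly lower in Sca1-HGAL, beside 3.10% and 2.37% of all genes. Itgax, the integrin CD11c, had a log2 difference of 0.48 (SE 0.12, limma adjusted p = 0.230), whereas Ccr9, a chemokine receptor, had -0.83 (SE 0.23, limma adjusted p = 0.294) and Siglech, a marker of plasmacytoid dendritic cells, -0.68 (SE 0.21, limma adjusted p = 0.342). In mean level, the 6 erythroid genes lay at 7.83 to 8.72 and 7.96 to 8.17, and the 8 stromal and endothelial genes 7.48 to 7.54 and 7.49 to 7.60. Of these, 4 erythroid genes were highest on Control 4, and 3 stromal and endothelial genes on Sca1-HGAL 2. The part of other cells in the neutrophil and macrophage values was not tested.

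Further genes of the same cells, from lists wider than the members, gave a mixed picture. Of 23 measured neutrophil genes outside the members, 0 passed limma, 6 were higher at an unadjusted p under 0.05, beside 5.49% of all genes, and 0 lower, beside 4.03%, and their median log2 fold was 0.05. The 6 include Cybb, at 12.62 in Control and 12.79 in Sca1-HGAL, within the range of the B-cell markers. The part of B cells in such values was not tested. Cd177, a neutrophil surface protein, had 0.23 (SE 0.06, limma adjusted p = 0.268), Il1b, the cytokine interleukin 1 beta, 0.35 (SE 0.10, limma adjusted p = 0.295). Both had Sca1-HGAL arrays wholly above Control. Ly6g, the classical neutrophil surface marker, read 6.96 and 6.75 on Sca1-HGAL 1 and 2, 6.14 on Control 3 and 5.55 to 5.90 on the other 5 arrays. These are the same top arrays as for Ngp, but Control 3 and the other 5 read within the range of absent transcripts. Of 18 further monocyte genes, 0 passed limma, 2 were higher and 1 lower at an unadjusted p under 0.05, beside the same 5.49% and 4.03% of all genes, a share near the background for the lower genes. Itgam, the integrin CD11b of myeloid cells and some B cells, had a log2 difference of 0.99 (SE 0.26, limma adjusted p = 0.261) with groups apart. Spi1, which encodes PU.1 in B and myeloid cells alike, had -0.20 (SE 0.07, limma adjusted p = 0.369), also with groups apart.

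Of 24 further macrophage genes, 0 passed limma, 1 was higher at an unadjusted p under 0.05, near the 5.49% of all genes, and 4 were lower, beside 4.03%. Slc40a1, the iron exporter ferroportin of red pulp macrophages, read 7.60 on Control 2 and 7.53 on Sca1-HGAL 4, with 7.28 on Control 4 and 6.54 to 6.88 on the other 5. Its top arrays were those of C1qb and Vcam1. Cd36, a scavenger receptor that marginal zone B cells carry too, had a log2 difference of -1.24 (SE 0.30, limma adjusted p = 0.23), with Sca1-HGAL 1 at 9.80 within the Control values. Hpgd, a prostaglandin-degrading enzyme, had -0.76 (SE 0.18, limma adjusted p = 0.203) with groups apart.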

How the data were processed

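RNA of sorted splenic B cells was measured on 8 arrays, grouped and numbered by sample title. The authors deposited array intensities. Per the submitters' processing notes these come from RMA, a method that corrects background, normalises arrays to each other and summarises probe sets. The RMA version and the annotation were not given in the sources used here. Deposited values are linear, so log2 was taken, without pseudocount or filter. RMA takes out a shift common to most genes and compresses differences at low signal. At most 0.060% of values were equal in any 2 columns, so the 8 arrays were taken as separate.

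The platform table gives 1 symbol to 21640 of 34760 probe sets, several to 1321, and lists no entry for 11799. A gene was represented by its brightest probe set. The group comparison was run in limma 3.58.1 under R 4.3.3 (functions lmFit, then eBayes, on the 2 groups without covariates, two-sided, with Benjamini-Hochberg adjustment over 21640), checked on simulated data. Correlations used all 40320 pairings, two-sided, adjusted over 12 pairs. The members and lists were chosen with earlier results of these data known. All members are named, and of other lists at most 2 genes with the smallest p plus fixed markers, with Fcgr4 and Cybb added for their values. Alternatives were normalisation, centring, a dim filter at log2 6, array weights, replicate block, variance prior, mean of probe sets, Xist-high arrays left out or as a covariate, and each array left out.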

Additional observations from a re-analysis of the deposited data

Results flagged for a closer look

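In 68 groups of 4 values (34 genes in each group), 6 had 1 array set apart from its 3 group mates. The rule took the gap to the nearest mate as a share of the range of the 4. Its nominal rate is 1 group in 20, or about 3.4, for independent groups of normal values. Many members moved together across arrays and no share of all genes is given, so the 6 cannot be read against that rate. In log2 levels, Control 3 was highest for Ltf (6.32, others 5.93 to 5.99) and S100a9 (7.22, others 6.75 to 6.82). Sca1-HGAL 4 was highest for Csf1r (7.85, others 7.34 to 7.40) and C1qb (9.30, others 8.09 to 8.12). Sca1-HGAL 2 was highest for Adgre1 (9.36, others 8.55 to 8.67), and Sca1-HGAL 3 was lowest for Lyz2 (7.67, others 8.62 to 8.78).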

How the results depend on the processing

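The main limits are 4 arrays a group, dim probe sets and the uneven Xist. Under up to 17 alternatives each, 22 of 34 members never changed sign, among them 13 of 15 neutrophil genes. Probe sets past the threshold numbered 1, with 12 under array weights, 6 under the replicate block, 2 with probe sets averaged per gene, 2 without the Xist-high arrays and 1 to 40 when 1 array was left out (40 without Sca1-HGAL 3). The cause was not tested. The members past the threshold were 0, except 1 under the replicate block, Adgre1 (log2 fold 1.01, limma adjusted p = 0.031, against 0.071 to 0.454 under the other alternatives). Same-numbered arrays had correlations of deviations of -0.16, 0.05, -0.13 and -0.01, so no pairing by number was seen. These values cannot show if same-numbered samples share a litter or batch, and the labels give neither. The median of the monocyte genes ran from -0.13 to 0.19 with 1 array left out, that of the neutrophil genes from 0.22 to 0.41 and that of the macrophage genes from -0.014 to 0.09. Pairs of genes past the threshold numbered 1 in place of 5 without the Xist-high arrays, over 6 arrays.

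Signs changed for small folds. Without the Xist-high arrays, and equally with high Xist as a covariate, S100a9 had -0.020, C1qa 0.067, C1qb 0.049, C1qc 0.26, Vcam1 0.18 and Axl 0.14. Array weights gave C1qb 0.028, C1qc 0.13 and Vcam1 0.091. A second quantile normalisation gave Timd4 -0.0095 and median centring -0.010. With 1 array left out, the range was -0.0016 to 0.17 for Prtn3, -0.034 to 0.22 for S100a9, -0.19 to 0.28 for Cd68, -0.23 to 0.15 for C1qc, -0.26 to 0.10 for Vcam1, -0.012 to 0.35 for Hmox1, -0.015 to 0.077 for Cd163, -0.21 to 0.055 for Axl, -0.038 to 0.055 for Timd4 and -0.00049 to 0.12 for Siglec1. The r of Csf1r with Adgre1 was 0.26 for deviations from the group means, and that of Elane with C1qb 0.19, or 0.14 without the Xist-high arrays.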
